A study of Mus musculus with 18 samples.

Results

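The BCL2 family was followed through mouse oocytes that lack the lipid kinase VPS34, which is encoded by Pik3c3. Members were taken by symbol from the count table of the study. Bcl2l10, Bcl2l1, Mcl1 and Bcl2 are grouped here as pro-survival genes. Bax, Bak1 and Bok are the effectors, and Bcl2l11, Bid and Bbc3 the BH3-only genes. All 10 symbols had a row among the 55291 genes of the table. Both genotypes carried a Vps34 gene flanked by loxP sites (Vps34 floxed/floxed). The conditional knockout (cKO, called ZcKO by the study) also carried Zp3-Cre, a transgene with the promoter of a zona pellucida gene that is active in growing oocytes, so deletion starts only once the oocyte grows. The control carried the floxed gene without Cre. Females were 5 weeks old. PMSG, which makes follicles grow, was given 46 h before oocytes with an intact germinal vesicle (GV) were taken. Ovulated oocytes at metaphase II (MII) were taken 14 h after hCG, which brings on ovulation. Each of the 4 groups had 3 libraries, and each library held 5 oocytes.

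BCL2 proteins set whether the outer mitochondrial membrane stays intact. The effectors BAX, BAK and BOK can open it and release cytochrome c, pro-survival members hold effectors and BH3-only proteins in check, and BH3-only proteins carry death signals to both. In the ovary this balance is known for setting how many oocytes survive, with BCL2, MCL1 and BCL-XL (the product of Bcl2l1) among the pro-survival proteins studied there and BAX and PUMA (the product of Bbc3) among the proteins of oocyte death. Fully grown oocytes make almost no new mRNA, and from GV to MII they translate some stored transcripts and degrade others, so a change between these stages is mainly a change in stored mRNA.

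Gene totals ran from 2609783 to 4696626 counts per library. The letter C in the column names was read as control and T as the Cre arm, so every genotype direction rests on this reading. Pik3c3 had 105, 109 and 121 counts in control and 5, 6 and 8 in cKO GV libraries, and 39, 71 and 63 against 14, 8 and 9 in MII libraries. These counts had been seen when the letters were read and are no independent check. All 10 oocyte markers checked were detected in every group, among them Gdf9, Zp3, Nlrp5 and Mos. The ratio of gene to ERCC spike-in counts, a measure of captured mRNA, was 4.35 to 8.69 in control and 6.29 to 13.1 in cKO GV libraries, against 1.85 to 2.42 and 1.51 to 2.21 at MII. Values relative to gene totals (CPM) and relative to spike-ins therefore differ between the stages, and both are given. The ratio of 13.1 was that of cKO GV library 1. It had 245489 spike-in counts, against 488336 and 477292 in cKO GV libraries 2 and 3.

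Bcl2l10, grouped here with the pro-survival genes, encodes a protein also known as Diva or Boo (build mm10, chromosome 9, 75347758 to 75351632). The function of this protein was not tested here. Bcl2l10 carried nearly all of the family's RNA. Its counts were 15338, 23413 and 29688 in control GV, 18432, 22851 and 16390 in cKO GV, 35754, 21956 and 27038 in control MII, and 16888, 22960 and 16055 in cKO MII libraries. The highest count was in control MII library 1 and the lowest in control GV library 1. Bcl2l10 stood between rank 5 and rank 11 of all genes by counts, made up 0.519% to 0.975% of all gene counts, and gave 96.6% to 99.4% of the counts of the 10 members. Per kilobase of exon its share of the family was 99.0% to 99.8%.

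Levels of different members were compared as CPM per kilobase of annotated exon. In control GV oocytes the mean level was 4832 for Bcl2l10, 21.5 for Bcl2l1 and 4.96 for Bax, and these 3 ranges did not overlap. Mcl1 followed at 1.94 and Bcl2l11 at 1.86, whose ranges overlapped each other, and then Bok at 0.950, with no overlap between Bcl2l11 and Bok. Bid, Bak1, Bbc3 and Bcl2 stood at 0.194, 0.0468, 0.0414 and 0.0297, each overlapping the next. The order of the first 3 was the same in cKO GV oocytes, at 4779, 25.6 and 9.03 CPM per kilobase, again without overlap. At MII the distance between the pro-survival genes widened: the level of Bcl2l10 per kilobase was 133 to 271 times that of Bcl2l1 in the 6 GV libraries and 959 to 1893 times in the 6 MII libraries. In control MII oocytes Bcl2l1 stood at 5.19, Bax at 3.39 and Bcl2l11 at 2.74 CPM per kilobase, without overlap between neighbours. In cKO MII oocytes they stood at 5.24, 3.595 and 2.54, and Bcl2l1 overlapped Bax, as Bax did Bcl2l11. These lengths take the union of all annotated exons, which overstates the length of the mRNA for genes with several isoforms.

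**Figure D1:**
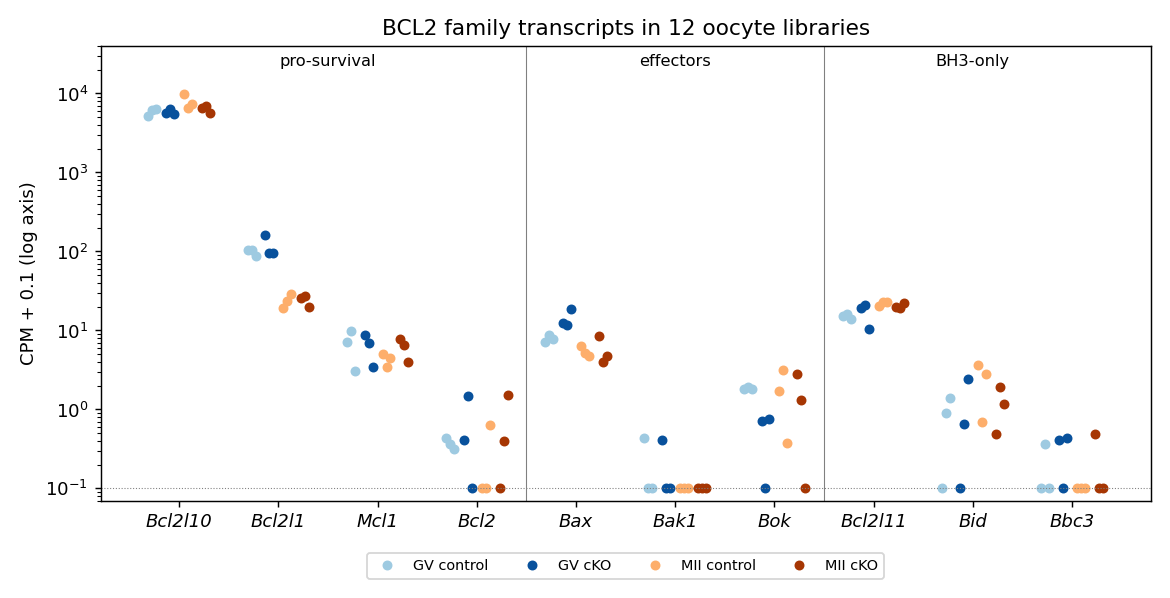
Counts scaled to the gene total (CPM, plus 0.1 so that zeros can be drawn, on a log axis) of the 10 BCL2 family members in each of the 12 libraries; 1 point is 1 library, colours give stage and genotype, and the dotted line marks a count of 0. Bcl2l10 lies between 5187 and 9747 CPM in every library, Bcl2l1 lies lower at MII than at GV, and Bcl2, Bak1 and Bbc3 lie at or near 0.

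The other pro-survival genes were far lower. Bcl2l1, the gene of BCL-XL (chromosome 2, 152780668 to 152831728), had 286 to 522 counts in GV and 55 to 106 in MII libraries. Mcl1 (chromosome 3, 95658788 to 95663176), whose protein is short-lived, had 21, 37 and 14 counts in control GV, 28, 25 and 10 in cKO GV, 18, 11 and 16 in control MII, and 20, 21 and 11 in cKO MII libraries, so its values overlapped in all groups. Bcl2 itself, the founding member of the family, was barely detected, with 0 to 5 counts per library and 3, 6, 2 and 5 counts in all over the 3 libraries of control GV, cKO GV, control MII and cKO MII.

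Among the effectors only Bax (chromosome 7, 45461697 to 45466898) had a steady signal, with 13 to 56 counts per library. Bak1, whose product can replace BAX in many tissues, had 1 count in 1 control and 1 count in 1 cKO GV library and none in any of the 6 MII libraries. A count of 0 over a group allows up to 3 counts, which is 0.281 CPM in control and 0.344 CPM in cKO MII oocytes. Bok, an effector linked to the endoplasmic reticulum, had 5, 7 and 8 counts in control GV and 2, 0 and 2 in cKO GV libraries, and 6, 10 and 1 against 7, 4 and 0 at MII. The CPM values of Bok did not overlap between the genotypes at GV, where 2.3% of all genes tested were lower without overlap. Per 1000 spike-in counts they did overlap, at 0.00736 to 0.0148 in control and 0 to 0.00815 in cKO GV libraries. Bok itself had too few counts to be tested. Reads from Smart-seq2 have no molecular identifiers, and such limits cover counting error only.

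Of the BH3-only genes, Bcl2l11, the gene of BIM (chromosome 2, 128126038 to 128162547), was the one with a steady signal, at 31 to 85 counts per library. Bid, whose product is cut by caspase-8, had 0, 3 and 6 counts in control GV, 0, 2 and 7 in cKO GV, 13, 2 and 10 in control MII, and 1, 6 and 3 in cKO MII libraries. Its exons share 628 bases with Bcl2l13 on the other strand, which had 64 to 171 counts, and the strand setting of the counting is not given in the sources used here, so the Bid counts are uncertain. Bbc3, the p53 target that encodes PUMA, had 0 or 1 count in every library. Ggnbp1, which overlaps Bak1 on the other strand, had 0 to 4 counts, and the genes that overlap Bcl2 and Bax exons had 0.

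The ends of the transcripts are shown because stored oocyte mRNAs are known to be lengthened at their tail through a cytoplasmic polyadenylation element close to the polyadenylation signal. The element (TTTTAT or TTTTAAT) and the signal (AATAAA or ATTAAA) were searched on the transcript's strand in the last 100 bases of 1 coding transcript per gene in the GENCODE M21 annotation (build mm10), a search chosen after the values were known. Each stretch lies in the last exon, after the coding sequence, runs 5′ to 3′ and ends with the signal, and capitals mark the element and the signal.
Bcl2l10, chromosome 9, 75351588 to 75351617, plus strand: catTTTTAATaacttcaaattcttAATAAA
Bcl2l11, chromosome 2, 128162500 to 128162529, plus strand: tatgttcttaatgaaTTTTATataAATAAA
Bcl2l1, chromosome 2, 152780689 to 152780718, minus strand: gtgaaggtgaaagtgcagttcagtAATAAA
Bax, chromosome 7, 45461718 to 45461747, minus strand: ggaatggtggcctggggaggcgccAATAAA
Mcl1, chromosome 3, 95663134 to 95663163, plus strand: aacttctgtttcttctgaagagaaAATAAA
Of the 10 members, 2 held the element in these 100 bases: Bcl2l10 once, starting 42 bases before the end, and Bcl2l11 at 2 places, starting 51 and 33 bases before the end, of which the second is shown. Over all 21760 coding genes with such a transcript, 16.5% held it. The signal was found in 9 of the 10 members (all but Bid), against 74.1% of all genes. A match of letters is a description and no measure of tail length, and other ends used in oocytes were not examined. Smart-seq2 primes on the poly(A) tail, so the amount of an mRNA and its capture cannot be told apart in these counts.

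Deletion of Vps34 was compared with the control first in GV oocytes. No member passed the test, and of the 5 tested members Bax lay farthest from the control. Bax stood at 7.10, 8.71 and 7.67 CPM in control and at 12.4, 11.6 and 18.7 CPM in cKO GV libraries (7.82 ± 0.814 against 14.2 ± 3.87, SD, n = 3). All 3 cKO libraries lay above all 3 controls. The fitted difference was 0.79 on the log2 scale (SE 0.29, 1.73-fold), with an unadjusted p of 0.0188 and an adjusted p of 1 in the quasi-likelihood test of edgeR, adjusted after Benjamini and Hochberg over 10911 genes. Without any 1 library it lay between 0.59 and 0.92 with adjusted p from 0.479 to 1. Over all genes, 0.0825% were called, 2.2% had an unadjusted p under 0.05 and 4.96% were higher in cKO without overlap. Per 1000 spike-in counts Bax was 0.0309, 0.0610 and 0.0666 in control and 0.163, 0.0860 and 0.117 in cKO (log2 1.20, SE 0.54, adjusted p = 0.727, edgeR). These values did not overlap either, but the share of all genes without overlap was counted on CPM only. On the spike-in scale the median of all genes was 0.46.

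The pro-survival members lay close to their controls at GV. Bcl2l10 stood at 5187, 6178 and 6321 CPM in control and 5733, 6296 and 5462 in cKO (log2 -0.07, SE 0.19, adjusted p = 1, edgeR). The difference of its means was smaller than the spread between libraries. Bcl2l1 stood at 103, 105 and 87.7 CPM in control and 162, 94.8 and 95.3 in cKO (log2 0.22, SE 0.24, adjusted p = 1). Only cKO library 1 lay above the controls, and without it the difference was -0.14. Mcl1 differed by -0.08 (SE 0.48) and the BH3-only gene Bcl2l11 by 0.13 (SE 0.30), both with overlap and an adjusted p of 1. On the spike-in scale all 5 tested members were positive, from 0.37 for Bcl2l10 to 1.20 for Bax (log2, adjusted p of 0.727 to 0.733, edgeR). The median of all genes was also positive there, at 0.46, and Bcl2l10 lay below it.

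Markers of cumulus and granulosa cells, the somatic cells around the oocyte, were also compared between the GV groups. The summed level of the 20 markers was 91.3 to 106 CPM in control and 59.5 to 82.0 CPM in cKO GV libraries, without overlap. In control Ptx3 and Tnfaip6 were at 0, and in cKO Foxl2 and Krt18 as well. Only 5 of the 20 could be tested, and 0 were called by edgeR. Inha, Inhbb and Hsd17b1 were lower in cKO (log2 -1.32, -1.63 and -2.43). These 3 had an unadjusted p under 0.05, as did 2.2% of all genes. Cyp19a1 and Kitl lay close to the control (log2 0.07 and -0.03). In such bulk libraries fewer cells of a type and less RNA per cell cannot be told apart. The part of these cells in the Bax and Bok values was not tested.

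In MII oocytes the genotypes overlapped for all 5 tested members, while 15.8% of all genes did not overlap. Bcl2l10 stood at 9747, 6628 and 7342 CPM in control and 6471, 6950 and 5722 in cKO, 7906 ± 1634 against 6381 ± 619 (SD, n = 3). Control library 1 lay above the rest and 1 cKO library lay within the control range. The log2 difference was -0.36 (SE 0.19, unadjusted p = 0.0916, adjusted p = 0.585, edgeR over 9677 genes) and -0.11 without control library 1. Bax, whose difference at GV was not called, stood at 6.27, 5.13 and 4.62 CPM in control and 8.43, 3.94 and 4.63 in cKO (log2 0.03, SE 0.42, adjusted p = 0.984). Bcl2l1 differed by -0.02 (SE 0.24, adjusted p = 0.982), Mcl1 by 0.46 (SE 0.41, adjusted p = 0.724) and Bcl2l11 by -0.14 (SE 0.23, adjusted p = 0.848).

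No gene of the whole table was called at MII by edgeR (0%), where 9.01% had an unadjusted p under 0.05. DESeq2 called 4 genes there, none of them a member. Pik3c3, the deleted gene, was 4.57-fold lower in cKO without overlap (log2 -2.19, SE 0.39, unadjusted p = 0.000149, edgeR) but had an adjusted p of 0.53. An uncalled member at MII is therefore not shown to be unchanged. Cumulus and granulosa markers summed to 179 to 299 CPM in control and 127 to 654 CPM in cKO MII libraries, with Amh at 0 in both. The highest sum was in cKO library 1, the library that also had the highest Bax value of the 6, and without it the Bax difference was -0.35. The part of these cells in the Bax value was not tested.

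**Figure D2:**
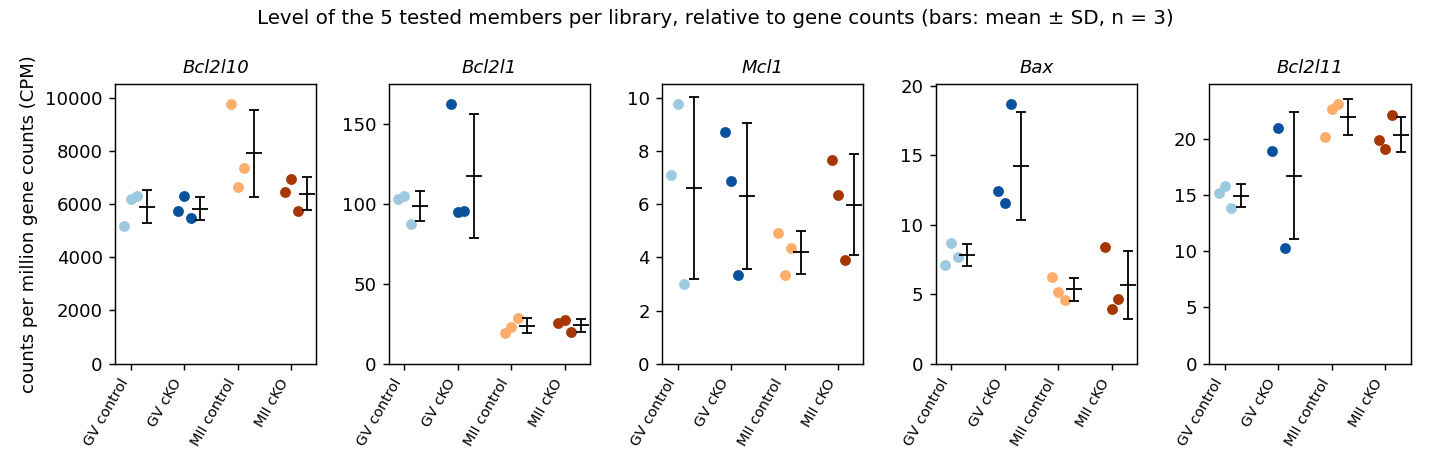
CPM of the 5 members with enough counts to be tested, 1 panel a gene with its own linear axis from 0; points are the 3 libraries of each group, and bars are the mean ± SD. Bcl2l1 falls from GV to MII in both genotypes, Bax is higher in the 3 cKO than in the 3 control GV libraries, and the genotypes overlap for every gene at MII.

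From GV to MII the clearest change in the family was that of Bcl2l1. In control oocytes it went from 103, 105 and 87.7 CPM at GV to 19.4, 23.2 and 28.8 CPM at MII, and in cKO oocytes from 162, 94.8 and 95.3 to 25.3, 27.2 and 19.6 CPM. Every MII library lay below every GV library, as for 38.5% of all genes in control and 37.7% in cKO oocytes. It fell 3.77-fold in control (log2 -1.92, SE 0.25, adjusted p = 2.87e-06) and 4.47-fold in cKO oocytes (log2 -2.16, SE 0.25, adjusted p = 8.05e-07, edgeR on 12 libraries and 11607 genes). Both falls were called under every alternative run. Relative to spike-ins Bcl2l1 went from 0.448, 0.738 and 0.763 to 0.0358, 0.0537 and 0.0696 per 1000 spike-in counts in control oocytes. In cKO oocytes it went from 2.13, 0.704 and 0.599 to 0.0513, 0.0602 and 0.0296, and the 2.13 was that of GV library 1. On this scale Bcl2l1 fell 12.2-fold in control and 24.2-fold in cKO oocytes. The median of all genes fell there by 1.72 and by 2.37 (log2).

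Bcl2l10 moved in opposite directions on the 2 scales. In control oocytes its 3 MII libraries, at 9747, 6628 and 7342 CPM, lay above the GV libraries, at 5187, 6178 and 6321 CPM, as for 28.9% of all genes. Relative to gene totals it rose 1.49-fold (log2 0.58, SE 0.20, adjusted p = 0.0185, edgeR), whereas relative to spike-ins it fell 2.36-fold (log2 -1.24, SE 0.38, adjusted p = 0.00201). The call on gene totals was lost without GV library 1 (log2 0.46, adjusted p = 0.0933), without MII library 1 (0.33, adjusted p = 0.132) and with no filter on low counts (0.48, adjusted p = 0.0538). In cKO oocytes the 5733, 6296 and 5462 CPM at GV overlapped the 6471, 6950 and 5722 CPM at MII (log2 0.27, SE 0.20, adjusted p = 0.256), and relative to spike-ins it fell 4.21-fold (log2 -2.07, SE 0.39, adjusted p = 2.33e-07).

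Bax, the effector, had a fall on gene totals that was called in cKO oocytes. In those it went from 12.4, 11.6 and 18.7 CPM at GV to 8.43, 3.94 and 4.63 CPM at MII, with no overlap. It fell 2.28-fold (log2 -1.19, SE 0.35, adjusted p = 0.00642, edgeR), between 0.97 and 1.55 on the log2 scale without any 1 library, with adjusted p from 0.00247 to 0.0408. In control oocytes Bax stood at 7.10, 8.71 and 7.67 CPM at GV and 6.27, 5.13 and 4.62 CPM at MII, which did not overlap either (log2 -0.41, SE 0.35, adjusted p = 0.32). Relative to spike-ins Bax fell 4.52-fold in control (adjusted p = 0.000152) and 11.1-fold in cKO oocytes (adjusted p = 2.14e-09).

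Bcl2l11, the BH3-only member, stood at 15.2, 15.8 and 13.8 CPM in control GV and 20.2, 22.6 and 23.1 CPM in control MII libraries. The stages did not overlap, and on gene totals it rose 1.61-fold (log2 0.69, SE 0.27, adjusted p = 0.0347, edgeR), whereas relative to spike-ins it fell 2.04-fold (log2 -1.03, adjusted p = 0.0435). The call on gene totals was lost when any of 5 of the 6 control libraries was left out (all but GV library 2), with adjusted p of 0.0555 to 0.104, and with no filter on low counts (adjusted p = 0.146). In cKO oocytes the values were 19.0, 20.9 and 10.3 CPM at GV and 19.9, 19.1 and 22.1 CPM at MII, which overlapped (log2 0.41, SE 0.28, adjusted p = 0.208). Relative to spike-ins Bcl2l11 fell 3.98-fold there (adjusted p = 7.83e-05). Mcl1 was not called on gene totals in control (log2 -0.49, SE 0.47, adjusted p = 0.373) or cKO oocytes (log2 0.03, SE 0.47, adjusted p = 0.957), and relative to spike-ins it fell 4.53-fold and 5.06-fold (adjusted p = 0.000485 and 0.000139).

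On gene totals 3 of the 5 tested members were called in control oocytes (1 lower, 2 higher), where 63.9% of all genes tested were called, 33.8% lower and 30.1% higher. In cKO oocytes 2 of the 5 were called, both lower, where 63.5% of all genes were called and 34% were lower. On the spike-in scale all 5 were called lower in both genotypes, where 70.1% of all genes tested were called lower in control and 88% in cKO oocytes. The members lay on both sides of the median of all genes on that scale, with Bcl2l1, Bax and Mcl1 below and Bcl2l10 and Bcl2l11 above it in control oocytes. In cKO oocytes Bcl2l1 and Bax lay below it and Bcl2l10, Bcl2l11 and, by a small margin, Mcl1 above it. The marker sums differed between the stages too. Those of cumulus and granulosa cells (ranges above) were higher at MII in both genotypes, but the single markers did not all rise. Of the 11 that could be tested, 6 were called higher and 2 lower in control oocytes. In cKO oocytes 8 were called higher and 0 lower. The share called was 72.7% in each genotype. Inhbb was 16.0-fold lower at MII in control oocytes (adjusted p = 0.000128, edgeR). The sums of 6 blood and immune markers, mostly C1qb, were 47.9 to 80.5 CPM at GV and 5.13 to 11.05 CPM at MII. The 10 oocyte markers summed to 32562 to 48973 CPM at GV and 13401 to 18709 CPM at MII, but they did not all fall. In control oocytes 0 were called higher and 6 lower, and Gdf9, Bmp15, Oosp1 and Mos were not called (log2 -0.02, -0.34, 0.14 and 0.24). In cKO oocytes 1 was called higher (Oosp1, log2 0.63) and 7 lower. The part of the cumulus, granulosa, blood and immune cells in the changes of the members was not tested.

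**Figure D3:**
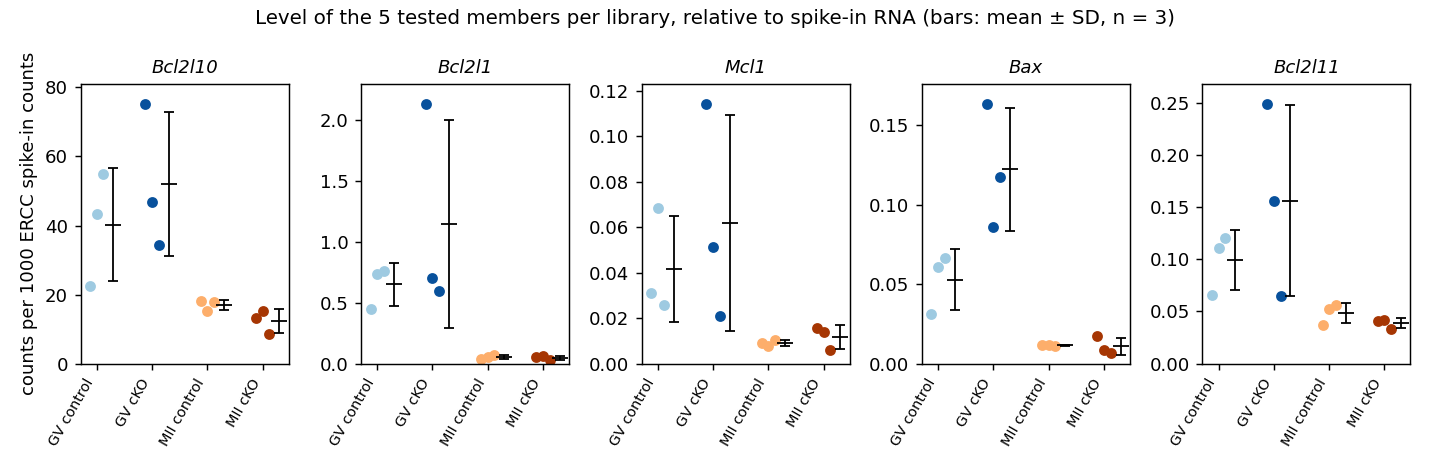
Counts of the 5 tested members per 1000 ERCC spike-in counts in each library, 1 panel a gene with its own linear axis from 0; bars are the mean ± SD of 3 libraries. All 5 lie lower at MII than at GV on this scale, with Bcl2l1 going from between 0.448 and 2.13 at GV to between 0.0296 and 0.0696 at MII.

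The number of Bcl2l1 counts for each Bax count, a pro-survival gene set against an effector, was 14.5, 12.1 and 11.4 in control GV and 13.1, 8.19 and 5.11 in cKO GV libraries. At MII it was 3.09, 4.53 and 6.24 in control and 3, 6.92 and 4.23 in cKO libraries. In control oocytes the 2 stages were apart, and in cKO oocytes cKO GV library 3, at 5.11, fell inside the MII range. Counts are not corrected for length, and the annotated exons of Bcl2l1 are longer than those of Bax. Per kilobase of exon the ratio was 3.93 to 4.97 in control GV and 1.76 to 4.48 in cKO GV libraries. At MII it was 1.06 to 2.14 in control and 1.03 to 2.38 in cKO libraries. These ratios are a description, without a test. They leave out Bcl2l10, which gave 96.6% to 99.4% of the counts of the 10 members. On gene totals Bcl2l10 and Bax had opposite signs from GV to MII. Their log2 values were 0.58 and -0.41 in control and 0.27 and -1.19 in cKO oocytes, of which the 0.58 and the -1.19 were called. The ratio of Bcl2l1 to Bax therefore does not stand for the pro-survival side of the family.

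Whether the change from GV to MII differed between the genotypes was tested by the interaction. No member was called, and over all genes 0.00862% were called and 5.24% had an unadjusted p under 0.05. Bax had the largest difference of the 5, with a change in cKO that was lower by 0.78 on the log2 scale (SE 0.50, unadjusted p = 0.133, adjusted p = 0.875). Bcl2l10 differed by -0.31 (SE 0.29, adjusted p = 0.898), Bcl2l11 by -0.28 (SE 0.39, adjusted p = 0.935), Bcl2l1 by -0.25 (SE 0.35, adjusted p = 0.935) and Mcl1 by 0.53 (SE 0.67, adjusted p = 0.93). The changes of Bax, Bcl2l10 and Bcl2l11 that were called on gene totals in 1 genotype were thus not shown to differ from those in the other.

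**Figure D4:**
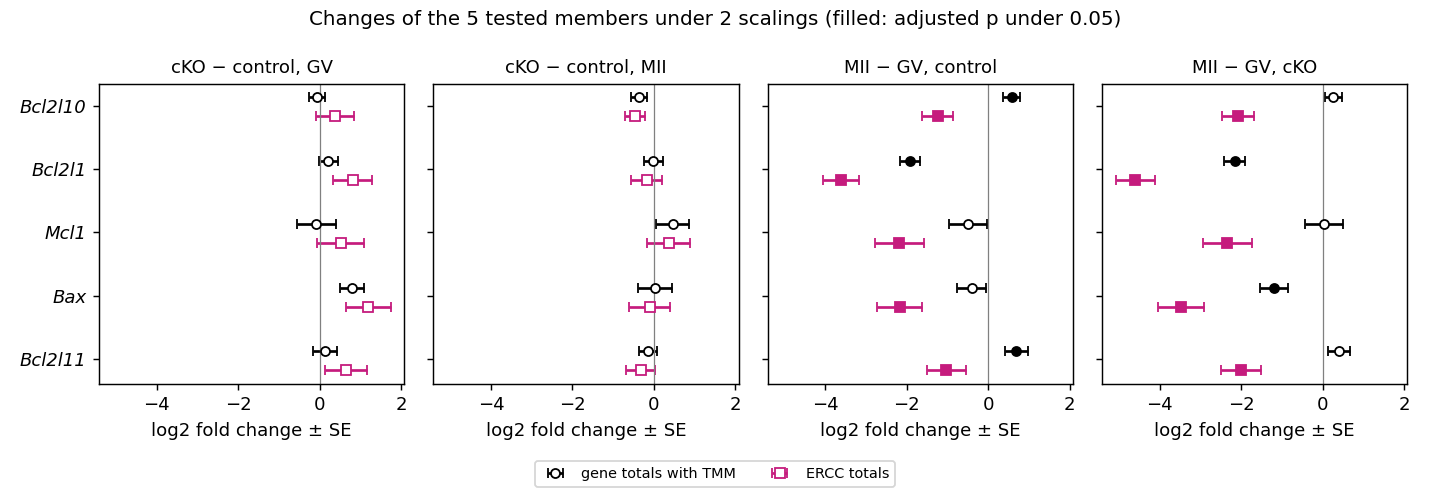
Log2 fold change ± SE of the 5 tested members in 4 comparisons, on gene totals with TMM (black circles) and on ERCC totals (pink squares); filled symbols have an adjusted p under 0.05. No genotype difference is filled, Bcl2l1 lies below 0 from GV to MII on both scales, and Bcl2l10 and Bcl2l11 lie above 0 on gene totals and below 0 on ERCC totals in both genotypes.

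The rest of the death pathway was read from a list of 55 genes in 6 groups. At GV 43 of them could be tested and none was called in cKO against control by edgeR or DESeq2. By edgeR 1 had an unadjusted p under 0.05, as did 2.2% of all genes tested. The median log2 difference was 0.08 against 0.01 for all genes. The smallest p values were those of Casp6, an executioner caspase, and Trp53, the gene of p53. Casp6 stood at 4.06, 3.17 and 3.83 CPM in control and 0.933, 1.65 and 0.9998 in cKO GV libraries, on 12 to 18 and 3 to 6 counts (log2 -1.62, SE 0.48, unadjusted p = 0.00561, adjusted p = 1). The cKO libraries lay below all controls, as for 2.3% of all genes tested. Trp53 differed by -0.45 (SE 0.24, unadjusted p = 0.0876, adjusted p = 1). At MII none of 37 was called by edgeR or DESeq2 (10 at an unadjusted p under 0.05, 5 in each direction, where 9.01% of all genes tested had one), and the smallest p values were those of Birc6, an inhibitor of caspases (log2 0.46, SE 0.15, unadjusted p = 0.0111, adjusted p = 0.53), and Mdm4, a p53 inhibitor (log2 0.52, SE 0.19, unadjusted p = 0.0174, adjusted p = 0.53).

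From GV to MII, 17 of the 43 genes rose and 11 fell in control oocytes on gene totals, and 15 rose and 12 fell in cKO oocytes. The shares called, 65.1% and 62.8%, were close to the 63.9% and 63.5% of all genes. The median change was 0.40 in both, against 0.01 and -0.04 for all genes. It was 0.25 in control oocytes without GV library 3, and 0.27 and 0.25 in cKO oocytes without MII library 1 and 2. On spike-in totals it was -1.35 and -2.02, where that of all genes was -1.72 and -2.37. Relative to spike-ins none of the 43 was called higher, and 27 fell in control and 38 in cKO oocytes, where 70.1% and 88% of all genes were called lower.

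Of the 15 further BCL2 relatives, 6 could be tested. Bnip3, a mitophagy receptor with a BH3-like stretch, went from 19.7 ± 6.15 to 83.4 ± 16.7 CPM in control and from 19.5 ± 9.08 to 90.5 ± 22.2 CPM in cKO oocytes (SD, n = 3). On gene totals it rose 4.77-fold and 5.15-fold (adjusted p = 2.72e-06 and 1.78e-06, edgeR). Relative to spike-ins its change was 0.52 (log2, adjusted p = 0.28) in control and 0.17 (adjusted p = 0.71) in cKO oocytes. Bnip3l, its close relative, went the other way, by -0.80 in control and -0.65 in cKO oocytes on gene totals (adjusted p = 0.00156 and 0.00768). Bcl2l12 fell 5.89-fold and 4.29-fold, and Bcl2l13, a mitochondrial relative, rose 1.73-fold and 1.59-fold on gene totals, whereas relative to spike-ins it fell by 1.03 and by 1.69 (log2, adjusted p = 0.0309 and 0.000316). Bik, a BH3-only gene of the endoplasmic reticulum, fell 2.00-fold in cKO oocytes (adjusted p = 0.0158) and was 1.63-fold lower in control (adjusted p = 0.0733). The pro-survival genes Bcl2a1a, Bcl2a1b and Bcl2a1d, near-identical copies whose reads could not be told apart, had no counts in any library.

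Among caspases and their regulators, 5 of 16 rose and 3 fell in each genotype on gene totals, 50% of the group against 63.9% and 63.5% of all genes. Apaf1, the scaffold of the apoptosome, went from 6.86 ± 1.17 to 14.5 ± 1.94 CPM in control oocytes (SD, n = 3, adjusted p = 0.00166, edgeR). Birc6 went from 71.6 ± 28.4 to 159 ± 11.3 CPM in control and from 81.3 ± 16.7 to 225 ± 25.4 CPM in cKO oocytes (adjusted p = 6.05e-05 and 6.9e-06). Xiap, another caspase inhibitor, rose 2.28-fold in cKO oocytes (adjusted p = 0.0016). Endog, a mitochondrial nuclease, fell 11.4-fold in cKO oocytes by the fit (adjusted p = 0.000425), on 10 to 24 counts at GV and 0 to 2 at MII. Casp6 rose 5.27-fold in cKO oocytes (adjusted p = 0.000736), and its interaction, 2.68 (SE 0.72, unadjusted p = 0.00148), had an adjusted p of 0.875. On the spike-in scale Apaf1 and Birc6 were at -0.52 and -0.33 in control oocytes (log2, adjusted p = 0.364 and 0.455). Apaf1 and Xiap were lower and called on that scale in cKO oocytes (adjusted p = 0.0324 and 0.0194), while Birc6 and Casp6 were not called there (adjusted p = 0.0882 and 0.795).

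Of the 8 genes upstream of the family all were called in control oocytes in this fit, 5 higher and 3 lower on gene totals, where 63.9% of all genes were called. DESeq2, no filter on low counts, and leaving out MII library 2 or 3 each gave 3 higher and 2 lower, and on spike-in totals 5 were lower and none higher. In cKO oocytes 4 were higher and 2 lower on gene totals, and all 8 were lower on spike-in totals, where 88% of all genes were. Mdm2, the ubiquitin ligase of p53, rose 2.56-fold in control oocytes, from 125 ± 18.6 to 287 ± 38.6 CPM (adjusted p = 8.24e-06, edgeR). Trp73, a p53 relative that is expressed in oocytes, fell 7.66-fold and 8.90-fold, and Ddit3, the stress factor CHOP that can induce Bcl2l11, fell 7.63-fold and 8.20-fold (control and cKO). Becn1, which encodes the Beclin 1 protein that binds both BCL2 proteins and VPS34, went from 28.3 ± 5.52 to 70.1 ± 27.0 CPM in control oocytes (log2 1.48, SE 0.34, adjusted p = 0.000969). Relative to spike-ins Mdm2 and Becn1 had log2 values of -0.43 and -0.33 in control oocytes (adjusted p = 0.33 and 0.496). Ambra1, a partner of Beclin 1, fell 4.604-fold and 4.79-fold. Vdac3, a channel of the outer mitochondrial membrane, fell 3.76-fold in control oocytes. Usp9x, which removes ubiquitin from MCL1, rose 3.29-fold in cKO oocytes on gene totals (adjusted p = 8.48e-06), and its change relative to spike-ins was -0.57 (log2, adjusted p = 0.157).

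**Figure D5:**
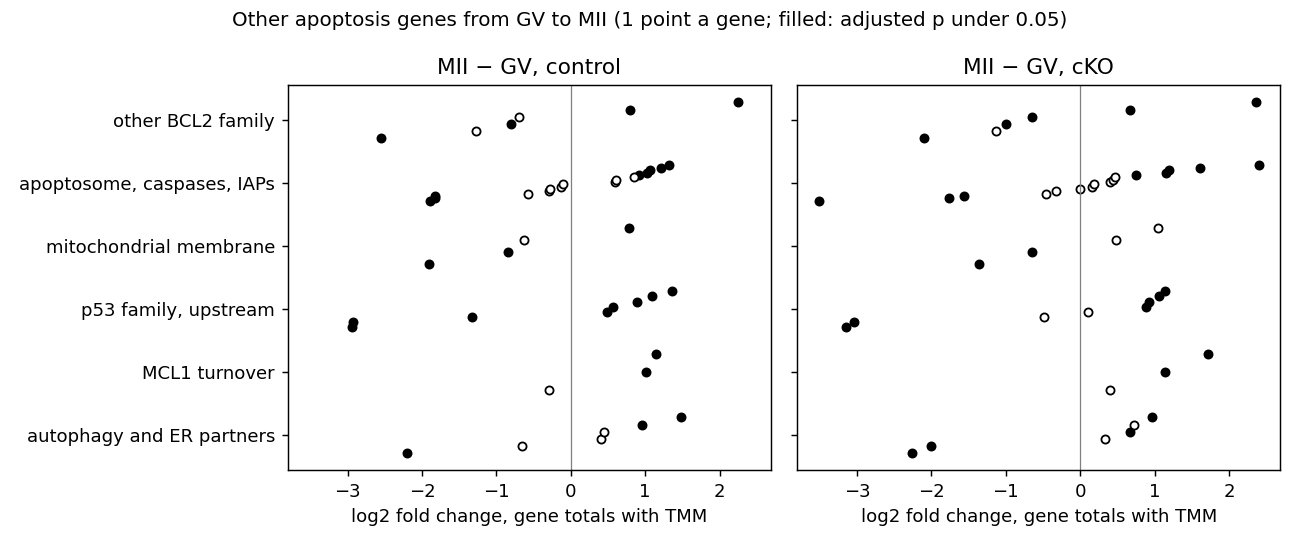
Log2 fold change from GV to MII on gene totals with TMM of the 43 other apoptosis genes tested, in control (left) and cKO oocytes (right), by group; 1 point is 1 gene, and filled points have an adjusted p under 0.05. In control 17 genes are higher and 11 lower at MII, in cKO 15 and 12, whereas on ERCC totals none is called higher.

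The genes whose pattern lay closest to that of Bcl2l10 were found by Pearson's correlation of log2(CPM + 1) over the 12 libraries among 11607 genes, which share depth and the 2 stages with it. They were Khdc1b (r = 0.941, 1585 to 4613 CPM), Dnaaf5 (r = 0.916, 52.4 to 113 CPM) and Sertad3 (r = 0.903, 27.1 to 96.2 CPM). Khdc1b had means of 1917 and 1870 CPM in control and cKO GV oocytes and of 3317 and 2102 CPM at MII. It was picked because it follows Bcl2l10 over these same libraries, so a like order of the groups is no second observation.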

How the data were processed

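Per the labels' protocols, libraries were made by Smart-seq2 with ERCC spike-ins and sequenced after KAPA HyperPlus preparation. The deposited table holds whole-number counts of reads for each gene symbol, without normalization, in 1 column a library. Per the submitters' processing notes, fastp, HISAT2, featureCounts and build mm10 were used (no versions). Which annotation release was counted, whether strand was used and how multiply mapped reads were handled is not given in the sources used here. The table has 55383 entries, of which 92 are spike-ins. Of 18 samples, 12 were used and the 6 of 2-cell embryos were not analysed here. Another 6 columns match no label and were not used.

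The tests ran in edgeR 4.0.16 under R 4.3.3 (TMM, filterByExpr, robust quasi-likelihood fit, Benjamini-Hochberg, threshold 0.05), without spike-ins in the library sizes. The filter kept 5 of the 10 members in every comparison (Bcl2l10, Bcl2l1, Mcl1, Bax and Bcl2l11). Genotypes were compared on the 6 libraries of a stage, and the changes from GV to MII and their interaction came from 1 fit of 12 libraries. A standard error (SE) is the size of a log2 fold change over the square root of its F value. The fit was tested on data simulated for the GV genotype comparison only, with larger changes than the members had there. The other comparisons were not simulated. CPM values are relative to gene totals without TMM factors. Alternatives were DESeq2 1.42.0, no filter, spike-in totals as library sizes, a replicate block, 1 fit of 12 libraries for the genotype comparisons, and leaving out each library. Exon lengths and transcript ends are from GENCODE M21, in which 96.4% of the symbols and all members matched.

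The members, the gene lists and the rule for named genes were chosen with earlier results of these data known. The rule named all members and Pik3c3, the 5 highest and 5 lowest called genes of the apoptosis lists per comparison or, with none called, the 2 with the smallest p, and the 3 genes most like the member with the most counts. Bnip3l, Bcl2l13, Bik and the Bcl2a1 genes are described outside the rule and were chosen after their values were seen. No label ties libraries to individual animals, so p-values may measure only the spread between these samples. No pair of libraries in a group looked like 1 library deposited more than once (smallest chi-square per degree of freedom 5.38, which takes reads as independent and covers counting error only).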

Additional observations from a re-analysis of the deposited data

How the results depend on the processing

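Bcl2l1 was called lower at MII in both genotypes, and Bax in cKO oocytes, under every alternative run, and no member was called in a genotype comparison or the interaction under any. The number of genes called at GV was 28 with no filter, 3 with 12 libraries in 1 fit and 2 to 10 without any 1 library. At MII it was 4 by DESeq2 and 96 with no filter, and for the interaction 5 by DESeq2, 18 with no filter, 3 on spike-in totals and 0 to 3 without any 1 library. Spike-in totals moved the share of calls that were higher from 22.2% to 54.5% at GV, from 47% to 0.792% for GV to MII in control and from 46.4% to 0.903% in cKO oocytes. The number of members called from GV to MII in control oocytes was 1 with no filter, 5 on spike-in totals and 1 to 3 without any 1 library, with 1 left without GV library 1 or MII library 1, and in cKO oocytes it was 5 on spike-in totals. The cause was not tested.

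Directions turned as follows. The genotype and interaction values below were not called in any setting. At GV, spike-in totals gave 0.37 for Bcl2l10 and 0.52 for Mcl1. Leaving out 1 library gave -0.18 to 0.01 for Bcl2l10 (0.0011 and 0.011 where it turned), -0.46 to 0.39 for Mcl1 (0.39 and 0.24 where it turned), -0.14 to 0.38 for Bcl2l1 and -0.060 to 0.40 for Bcl2l11. At MII, Bax was -0.0053 with no filter, -0.10 on spike-in totals and -0.35 to 0.25 without any 1 library (-0.04, -0.08 and -0.35 where it turned). Bcl2l1 was -0.11 to 0.13 there (0.13 and 0.09 where it turned). From GV to MII, spike-in totals turned the rises of Bcl2l10 and Bcl2l11 that were called in control oocytes to called falls of -1.24 and -1.03, and turned Bcl2l10 to -2.07, Mcl1 to -2.34 and Bcl2l11 to -1.99 in cKO oocytes, where none of the 3 was called on gene totals and all were on spike-in totals. Mcl1 in cKO oocytes was -0.029 with no filter and -0.29 to 0.36 without any 1 library (-0.29, -0.14 and -0.0079 where it turned). In the interaction, Mcl1 was -0.16 on spike-in totals, and Bcl2l1 was 0.10 without cKO GV library 1, within -0.41 to 0.10.

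Libraries with the same replicate number did not deviate together (correlations of -0.24, 0.01 and 0.22 at GV and -0.18, -0.07 and 0.01 at MII), so the numbers are not read as pairs. With the replicate block, 11 genes were called at GV, 0 at MII, 7272 and 7233 from GV to MII in control and cKO oocytes, and 1 in the interaction. The block gave -0.0056 for Bax at MII and left 0, 0, 3, 2 and 0 members called. The 5 members with too few counts to be tested can only be bounded, and with 3 libraries a group an exact permutation test cannot go below p = 0.1.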
